A study of Mus musculus with 32 samples.

Results

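The wild-type superior mesenteric ganglion, a sympathetic ganglion of the abdomen, was described from the 8 samples of 32 in the series whose titles mark them as wild-type ganglion. Each was a ganglion sample of a 3-week-old wild-type mouse of the 129+Ter/SvJcl strain, hybridised to its own one-colour Agilent array. Ganglia of 8 TH-MYCN hemizygotes of the same age and strain were used for comparison. These mice carry human MYCN under a tyrosine hydroxylase promoter, so the transgene is driven in noradrenergic cells. The other 16 arrays held spheres, clusters of cells grown in culture from TH-MYCN mice, and were used only to say where a gene was detected and to size the error between arrays of 1 RNA. The labels give neither the sex of the mice nor how the ganglion was cleaned of the tissue around it, and their extraction text speaks of spheres. RNA with an integrity number above 8 was labelled from 40 or 200 ng, and the amount used for each sample is not stated.

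Sympathetic neurons make noradrenaline from tyrosine, store it in dense-core vesicles with peptides such as neuropeptide Y, and are driven by acetylcholine acting on nicotinic receptors. Their cell bodies are wrapped by satellite glia and their axons by Schwann cells, within a capsule of fibroblasts and vessels. The superior mesenteric ganglion lies at the root of the artery to the gut, where fat, lymph nodes, adrenal gland and pancreas are neighbours.

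A level below is the log2 of an array's processed signal minus that array's 75th percentile over all non-control spots, so 0 marks the 75th percentile. A gene was represented by the probe with the highest mean among its probes well above background on all 8 arrays. Brightness depends on the probe, so levels of different genes are not amounts of RNA and are not ordered here. On the 8 arrays 60.4% to 65.7% of the spots were well above background and none was saturated. The 75th percentile of signal ran from 523 in sample 1 to 989 in sample 2.

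The promoters of the marker genes named for this tissue, and of a fat gene that leads the most variable set described further on, are printed here because the results turn on these 4 genes. Each is the 250 bases before the gene's RefSeq start on build GRCm38.p6. The capitals mark TGACGTCA, the cyclic AMP response element, ATTA, the core that homeodomain proteins such as Phox2a bind, and CCAAT, the box named after these letters. Both strands were searched in all 4, and in Dbh a CCAAT and an ATTA overlap.
Th: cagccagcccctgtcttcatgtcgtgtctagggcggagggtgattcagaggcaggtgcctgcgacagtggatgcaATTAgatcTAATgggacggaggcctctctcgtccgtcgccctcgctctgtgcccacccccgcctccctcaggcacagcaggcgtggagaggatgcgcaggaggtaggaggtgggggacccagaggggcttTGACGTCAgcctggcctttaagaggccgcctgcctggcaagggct
Dbh: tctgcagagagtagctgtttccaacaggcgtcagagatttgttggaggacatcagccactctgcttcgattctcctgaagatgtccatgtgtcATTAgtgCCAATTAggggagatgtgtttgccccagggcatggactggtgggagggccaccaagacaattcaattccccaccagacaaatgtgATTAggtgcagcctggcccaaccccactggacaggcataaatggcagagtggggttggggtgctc
Npy: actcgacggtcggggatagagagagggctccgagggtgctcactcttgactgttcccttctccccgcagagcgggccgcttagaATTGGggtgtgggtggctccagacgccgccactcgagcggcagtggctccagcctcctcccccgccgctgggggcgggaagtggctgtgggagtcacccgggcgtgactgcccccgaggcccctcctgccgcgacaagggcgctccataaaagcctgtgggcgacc
Adipoq: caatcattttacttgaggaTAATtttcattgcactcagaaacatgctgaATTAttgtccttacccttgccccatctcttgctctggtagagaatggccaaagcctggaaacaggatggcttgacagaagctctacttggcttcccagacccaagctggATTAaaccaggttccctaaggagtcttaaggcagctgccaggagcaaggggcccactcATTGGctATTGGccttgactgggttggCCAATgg
The Th stretch lay at chr7:142899996-142900245 on the minus strand, Dbh at chr2:27165257-27165506 on the plus strand, Npy at chr6:49822460-49822709 on the plus strand and Adipoq at chr16:23146286-23146535 on the plus strand. Th held 1 TGACGTCA, its first base 45 bases before the start, 2 ATTA and no CCAAT. Dbh held 3 ATTA and 1 CCAAT, Npy 1 CCAAT and no ATTA, and Adipoq 3 ATTA and 3 CCAAT, and TGACGTCA was in none of these 3. None of the 4 held the DR1 element that the fat cell factor PPARG binds with RXR. Of 27025 promoters of this length, 1.62% held TGACGTCA, 55.3% held ATTA, 34.5% held CCAAT and 0.037% held the exact DR1 form. These matches describe the letters of the window only.

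All 3 marker genes were well above background in every wild-type ganglion. Th, whose enzyme sets the pace of catecholamine synthesis, had a lowest level of 8.30, a median of 8.60 and a highest of 8.79. Dbh, which turns dopamine into noradrenaline, had a lowest level of 8.24, a median of 8.61 and a highest of 9.11. Npy, the peptide stored with noradrenaline, had a lowest level of 7.24, a median of 7.68 and a highest of 7.94. The 8 ganglia thus differed by less than 1 log2 unit in each marker, and sample 7 was the highest for Th and the lowest for Dbh. In TH-MYCN ganglia the same probes ran from 7.29 to 8.21 for Th, from 7.75 to 8.42 for Dbh and from 6.21 to 7.27 for Npy. The groups did not overlap for Th and overlapped for Dbh and, narrowly, for Npy. By limma with Benjamini-Hochberg adjustment over 15845 genes, wild type was higher by 0.84 for Th (SE 0.13, adjusted p = 6.0e-05), by 0.54 for Dbh (SE 0.11, adjusted p = 0.00067) and by 0.97 for Npy (SE 0.15, adjusted p = 6.4e-05), with 8 samples in each group. In that fit 65.7% of all genes were called at an adjusted p under 0.05, 43.8% as higher and 21.9% as lower in wild type, and the median difference of all genes was 0.22. Both groups were spread over 2 slides, samples 1 to 4 on slide 1 and 5 to 8 on slide 2. Within slide 1 the differences were 0.92 for Th, 0.64 for Dbh and 1.05 for Npy, within slide 2 they were 0.77, 0.44 and 0.89, and with slide as a block 0.84, 0.54 and 0.97, all called. The Dbh call was lost after quantile normalization (0.17, limma adjusted p = 0.104), under which Th and Npy were still called. In whole tissue, fewer cells of a type and less RNA per cell cannot be told apart.

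**Figure D1:**
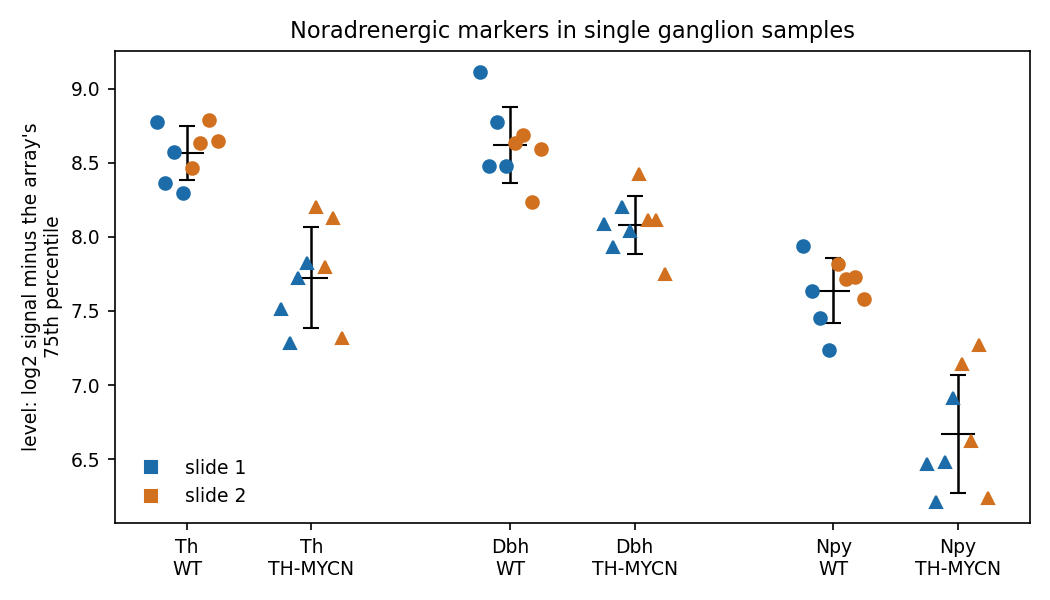
Levels of Th, Dbh and Npy (vertical axis, log2 signal minus the array's 75th percentile) in each of the 8 wild-type (circles) and 8 TH-MYCN ganglia (triangles), coloured by slide, with the group mean (dash) and SD (bar). Th in wild type lies between 8.30 and 8.79, above all TH-MYCN values, which reach 8.21, while the Dbh points of the groups overlap.

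The 30 genes with the highest mean ran from 7.98 to 8.86. They were drawn from the 13985 genes with curated symbols that were well above background in all 8 ganglia. The 30 held transmitter enzymes, cytoskeletal and housekeeping genes, and other genes. Those of noradrenaline synthesis were Th, Dbh and Cyb561, the last of which passes electrons into the vesicle for it. Tubulins (Tuba1a, Tuba1b, Tubb2a), the endoplasmic reticulum protein gene Rtn1 and Ndrg4 are abundant in neurons. Energy and protein turnover were represented by the glycolytic Aldoa and Gapdh, the mitochondrial Cox6a1 and Chchd2, ubiquitin (Ubb), the prolyl isomerase Ppia and the autophagy gene Gabarapl1. Signalling and matrix genes were Gnas, the stimulatory G protein subunit, Fxyd6, a regulator of the sodium pump, and Sparc, a matrix glycoprotein. The others were Hint1, Rn4.5s, Glrx2, Exosc2, Elk1, Med16, Ndor1, Ttc38, Kctd14, Pbld1, Slc10a1 and Milr1. The next genes below the limit were Fam177a2 and Atp9a, each at a mean of 7.97.

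Several names in this set rest on 1 probe that another probe of the gene did not bear out. Slc10a1 is the bile acid uptake carrier of the liver. Its bright probe had a lowest level of 8.43, a median of 8.83 and a highest of 9.29, while its other probe was well above background on 0 of the 8 arrays. The other probe of Pbld1 was likewise above background on 0 arrays, and that of Elk1, a transcription factor, was at a mean of -3.97. Of the 15 genes with another probe on the array, the closest other probe lay more than 4 log2 units lower for 10 and within 2 log2 units for 5. Those 5 were Tuba1b, Gapdh, Ubb, Milr1 and Gnas, whose other probes had means of 7.57, 8.03, 7.78, 7.11 and 6.79. Where the probes differ this much, the gene name of the bright probe is not secured by these arrays. When a gene was instead given the mean of all its probes above background, 20 of the 30 stayed among the brightest.

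The levels of these genes moved with the sample. Of the 30, 25 had their highest level in sample 1, and 15 had their lowest in sample 2 and 8 in sample 4. Over all 13985 genes, 2208 were highest in sample 1. Rn4.5s, a small RNA gene copied many times in rodent genomes, ran from a lowest level of 8.24 in sample 2 over a median of 8.68 to a highest of 9.07 in sample 1. With it 18 of the other 29 correlated at a Pearson r above 0.8 over the 8 samples, against 0.608% of all other genes; Th, Cyb561, Aldoa and Gapdh were among them. Sample 1 was the dimmest of the 8 arrays and sample 2 the brightest by the 75th percentile that the levels are set against, and the part of this in the pattern was not tested. The median SD of the 30 was 0.22, beside 0.23 over all genes.

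Against TH-MYCN ganglia, 27 of the 30 were higher in wild type by limma and 0 were lower. The 30 were chosen by their mean in wild type, which favours that direction, so the count is a description and nothing is read from it beside the 43.8% of all genes called higher. Kctd14, Rn4.5s and Tuba1a did not pass. Gabarapl1 differed by 0.86, Ndrg4 by 0.83, Aldoa by 0.80, Fxyd6 by 0.72, Tubb2a by 0.67 and Cyb561 by 0.64 log2 units, and their calls held in all 16 fits that left out 1 sample. The median difference of the set, open to the same choice, was 0.41, and over all curated genes it was 0.23. Quantile normalization turned the small differences of Slc10a1, Tuba1b, Exosc2, Elk1, Ttc38 and Milr1 to between -0.06 and -0.01, none called. The calls of Slc10a1, Ttc38 and Milr1 were also lost in 7, 7 and 5 of the 16 fits without 1 sample. Without wild-type sample 1, 6 or 7, or TH-MYCN sample 4 or 8, each of the 3 was lost, at differences down to 0.26. Slc10a1 was lost without wild-type sample 3 and TH-MYCN sample 2 as well, and Ttc38 without wild-type sample 8 and TH-MYCN sample 2, at 0.33 to 0.34.

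**Figure D2:**
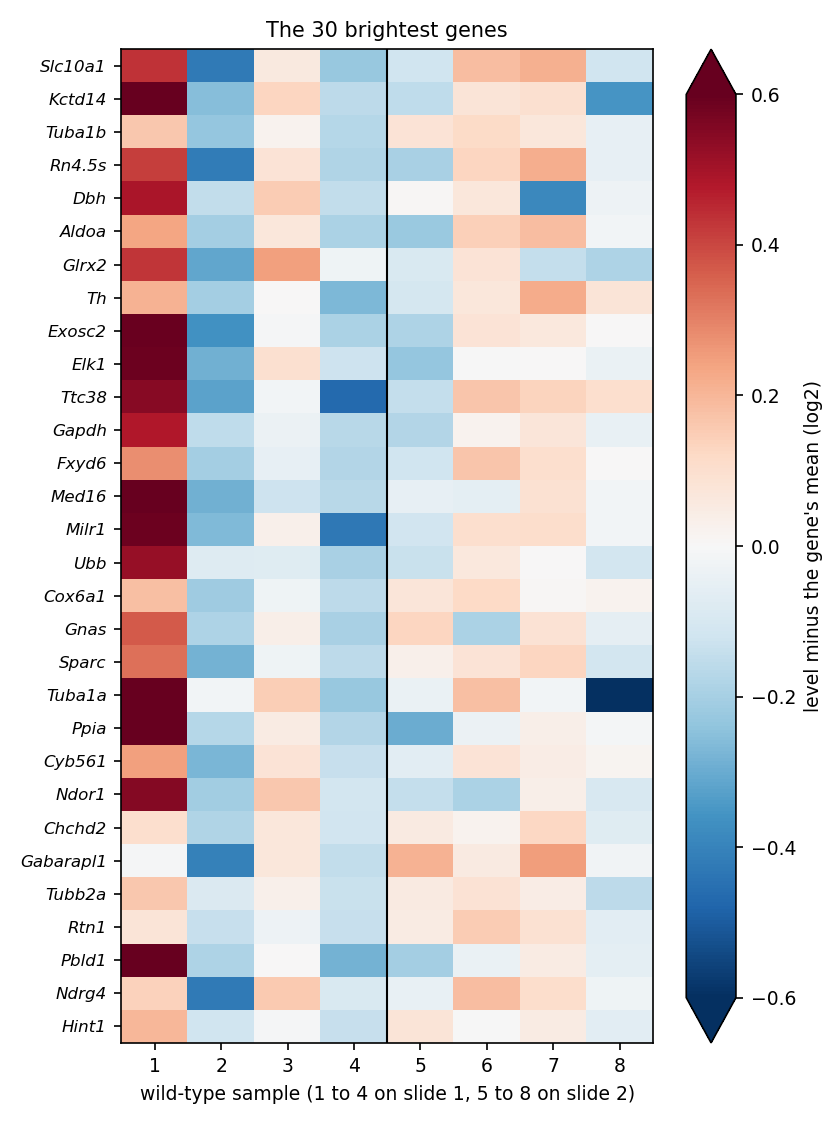
Level of each of the 30 brightest genes (rows) in wild-type samples 1 to 8 (columns, the line dividing slide 1 from slide 2), shown as the log2 difference from the gene's mean, red above and blue below. Sample 1 is the highest in 25 of the rows, and samples 2 and 4 are the lowest in 15 and 8.

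Among lists of genes known for a cell type, those of the sympathetic neuron were detected in full. All 16 genes of catecholamine synthesis and storage, all 11 sympathetic transcription factors and all 18 general neuronal genes were well above background on all 8 arrays. Slc6a2, the noradrenaline reuptake carrier, had a mean level of 6.96 ± 0.28 (SD, n = 8), Slc18a2, which loads the vesicle, 6.42 ± 0.11, and Ddc, the second enzyme of the path, 7.45 ± 0.12. Chga, a granin of the vesicle, was at 6.26 ± 0.47, and Vgf, a neuropeptide precursor, at 5.25 ± 0.85 with a lowest level of 3.67 in sample 2 and a highest of 6.34 in sample 7. The transcription factors that specify this neuron were also above background, Phox2a at 6.77 ± 0.49 and Hand1 at 3.97 ± 0.24. Prph, a neurofilament-like protein of peripheral neurons, was at 7.23 ± 0.30, Stmn2 at 7.61 ± 0.18 and Gap43 at 7.08 ± 0.12. The mean of the catecholamine list ran only from 6.11 in sample 2 to 6.62 in sample 7, and that of the neuronal list from 5.73 to 6.17.

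All 16 catecholamine genes were higher in wild-type than in TH-MYCN ganglia, at a median difference of 0.77, and 15 were called after quantile normalization. Over all genes 43.8% were called higher and 21.9% lower in wild type, at a median difference of 0.22, and the counts below stand beside these shares. Of the neuronal list 14 of 18 were higher and 1, Elavl3, was lower, at a median of 0.61. Sympathetic transcription factors went both ways, with 2 higher, Hand1 by 0.82 (SE 0.14, limma adjusted p = 0.00010) and Gata2 by 0.64, and 6 lower. Among the lower were Tfap2b (-0.68), Isl1 (-0.90), Sox11 (-2.88) and Insm1 (-7.46), the last 2 known from immature neuroblasts. In wild type Insm1 was still above background on all 8 arrays, from -4.19 to -2.24. All 10 genes of dividing cells were lower in wild type, at a median of -5.44, and only 6 of the 10 were above background in all 8 ganglia. Bub1 and Top2a were above background on 4 and 5 wild-type arrays and Aurkb on 0. Aurkb was thus tested only through TH-MYCN arrays, so its direction follows from the filter and is not given as a result. Mki67, a marker of cycling cells, ran from -1.68 to -0.18 in wild type, with a difference of -5.81 (SE 0.28, limma adjusted p = 1.0e-10). Cdk1, a kinase of the cell cycle, was above background on 7 arrays and ran from -7.54 in sample 7 over a median of -4.69 to 5.88 in sample 1. That probe stands alone, since the other 2 probes of Cdk1, at means of -6.26 and -7.52, were above background on 0 arrays.

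Transmitter peptides and receptors were less uniform. Of 17 neuropeptide genes 8 were above background on all arrays and 4 on none. Beside Npy, Gal (galanin) was at 5.17 ± 0.25, Penk (proenkephalin) ran from -0.22 in sample 6 to 1.56 in sample 8, Sst (somatostatin) from 0.08 to 0.91 and Pomc from -0.18 to 0.54. Of 13 tested, 6 were higher in wild type and 5 lower, Cartpt among the lower by -4.19 (SE 0.28, limma adjusted p = 3.5e-09). Among all genes 43.8% were higher and 21.9% lower. Pnoc and Grp, counted as lower, were above background on 0 and 1 wild-type arrays and on 8 and 4 TH-MYCN arrays. Cck, counted as higher, was above on 4 wild-type and 0 TH-MYCN arrays. They passed the filter only or largely through 1 group, so their directions follow from it and are not given as results. Of the nicotinic subunits that receive the preganglionic signal, Chrna3 was at 3.10 ± 0.12 and Chrnb4 at 4.62 ± 0.27, each above background on all arrays and higher in wild type by 1.01 and 1.32. Chrna4 and Chrnb3 were above background on no wild-type array, and Chrnb2, Chrna5 and Chrna7 on all. All 4 genes of cholinergic neurons were detected. Chat, which makes acetylcholine, ran from -1.13 to 1.25, and Slc18a3, its vesicle carrier, from -2.14 to -0.67. Chat was lower on slide 2 (difference -1.39, SE 0.26, limma adjusted p = 0.012), while Slc18a3 and Ache were higher there. In TH-MYCN ganglia Chat differed between the slides by -1.02 (limma adjusted p = 0.018). Of all genes 25.3% were called between slides in wild type. Higher in wild type were 3 of them, Ache, Slc18a3 and Slc5a7. Chat had a difference that did not pass (limma adjusted p = 0.28).

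Glia and connective tissue were likewise detected in nearly full lists. All 12 genes of satellite and non-myelinating glia were above background, with Apoe at 7.94 ± 0.12, Ngfr, the low-affinity neurotrophin receptor, at 7.29 ± 0.45, Fabp7 at 5.86 ± 0.18, Kcnj10 at 3.71 ± 0.35 and Glul at 3.49 ± 0.10. In wild type 10 of the 12 were higher than in TH-MYCN ganglia, the median of the list being 0.87, with S100b at 1.62. Of 11 genes of myelinating Schwann cells 10 were above background on all arrays, Pmp22 at 5.80 ± 0.20, Mal at 4.47 ± 0.19 and Mbp at 3.33 ± 0.46, and 10 of 11 were higher in wild type at a median of 0.94. The mean of the satellite glia list spanned 2.17 to 2.48, and that of the myelin list 1.38 to 1.77. Fibroblast genes were all 12 detected, Dcn at 7.08 ± 0.27, Col1a2 at 6.51 ± 0.25 and Gsn at 5.70 ± 0.14, with 10 higher in wild type and Fbln1 lower. All 12 endothelial genes were detected, Egfl7 at 5.18 ± 0.28 and Kdr at 1.87 ± 0.72, with 9 higher. Of 12 genes of pericytes and smooth muscle 11 were above background, Myl9 at 3.70 ± 0.17, with 10 higher and Notch3 lower. Tagln, a smooth muscle protein, ran from 1.88 in sample 7 to 5.26 in sample 1. Lymphatic endothelium had 2 of 5 genes on all arrays. These counts of list genes stand beside 43.8% higher and 21.9% lower among all genes, and the medians beside 0.22.

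Among the lists of blood-derived cells, that of macrophages had more genes lower than higher in wild type. Its genes were above background for 11 of 12, with Csf1r at 2.91 ± 0.11, Ctss at 1.80 ± 0.31, Tyrobp at 1.67 ± 0.33 and C1qa, of complement, at 0.17 ± 0.24. Of the 11 tested, 9 were lower in wild type and 1, Mrc1, was higher, at a list median of -1.38. This count and those of the lists that follow stand beside 21.9% lower and 43.8% higher among all genes. Of 9 mast cell genes 6 were detected on all arrays. Mcpt4, a mast cell protease, ran from -0.38 in sample 7 to 1.78 in sample 1 and was higher in wild type by 2.45 (SE 0.26, limma adjusted p = 1.1e-06), as were Cma1 by 2.36, Cpa3 by 2.32, Tpsb2 by 1.44 and Hdc by 1.05, making 5 of the 6 tested. Genes of MHC class II (6 of 6 on all arrays, 5 higher) and of the interferon response (11 of 11, 9 higher and Ifi44 lower) were present in every ganglion. Hemoglobin genes varied more. Hba-a2 had a lowest level of 6.14 in sample 6, a median of 7.15 and a highest of 8.81 in sample 1, and the mean of the 6 detected erythroid genes ran from 2.85 in sample 6 to 6.00 in sample 1. None of the 7 erythroid genes tested differed between genotypes by limma, at an adjusted or an unadjusted p under 0.05.

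Tissue that could be carried over in dissection was checked with the same kind of list. Fat genes were present in every sample and are described below. Adrenal cortex showed 5 of 11 genes on all arrays, namely Fdx1, Scarb1, Nr5a1, Cyp21a1 and Star. Of its steroid synthesis genes, Cyp11a1, Cyp11b1, Cyp11b2 and Hsd3b1 were above background on no array, while Cyp21a1, the steroid hydroxylase, was at a mean of -3.34 and Star, which brings cholesterol into mitochondria, at -4.73. The other probe of Cyp21a1 was above background on 0 arrays and that of Star on 3. Pnmt, which makes adrenaline in chromaffin cells of the adrenal medulla, was above background on all 8 arrays, from -3.33 in sample 5 to -1.14 in sample 8, and was lower than in TH-MYCN ganglia (difference -1.74). Slc18a1, a vesicle carrier of chromaffin cells, was at 4.43 ± 0.32. Of 16 pancreatic acinar genes 5 were above background on all arrays, Cela1, Cpb1, Cel, Clps and Ctrb1, while Prss2, Try4, Try5, Cela3b, Reg1, Prss1, Pnliprp1 and Ptf1a were above on 1 array each. For Try4, Try5, Cela3b, Reg1, Prss2 and Pnliprp1 the highest level was in sample 1. Of islet genes Ins2 alone of 6 was above on all arrays. Liver showed 3 of 10 genes on all arrays, Apoa2, Serpina1a and Cyp2e1, and Alb and Apoa1 on none. Skeletal muscle showed 7 of 12, with Ckm and Mylpf on none. Of intestinal epithelium 2 of 8 genes, of mesothelium 3 of 9 and of kidney 3 of 8 were above on all arrays. Of 6 mesothelial genes tested, Upk3b, Wt1 and Krt18 were lower on slide 2 by limma, beside 8.4% of all genes. With normexp background 0 of the 6 were called. Upk3b, Wt1 and Krt18 were well above background on only 4, 5 and 5 arrays. Their direction can follow from the filter and is not given as a result. Of 10 sensory neuron genes 6 were above on all arrays, and Prdm12, Isl2 and Mrgprd were above on none.

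**Figure D3:**
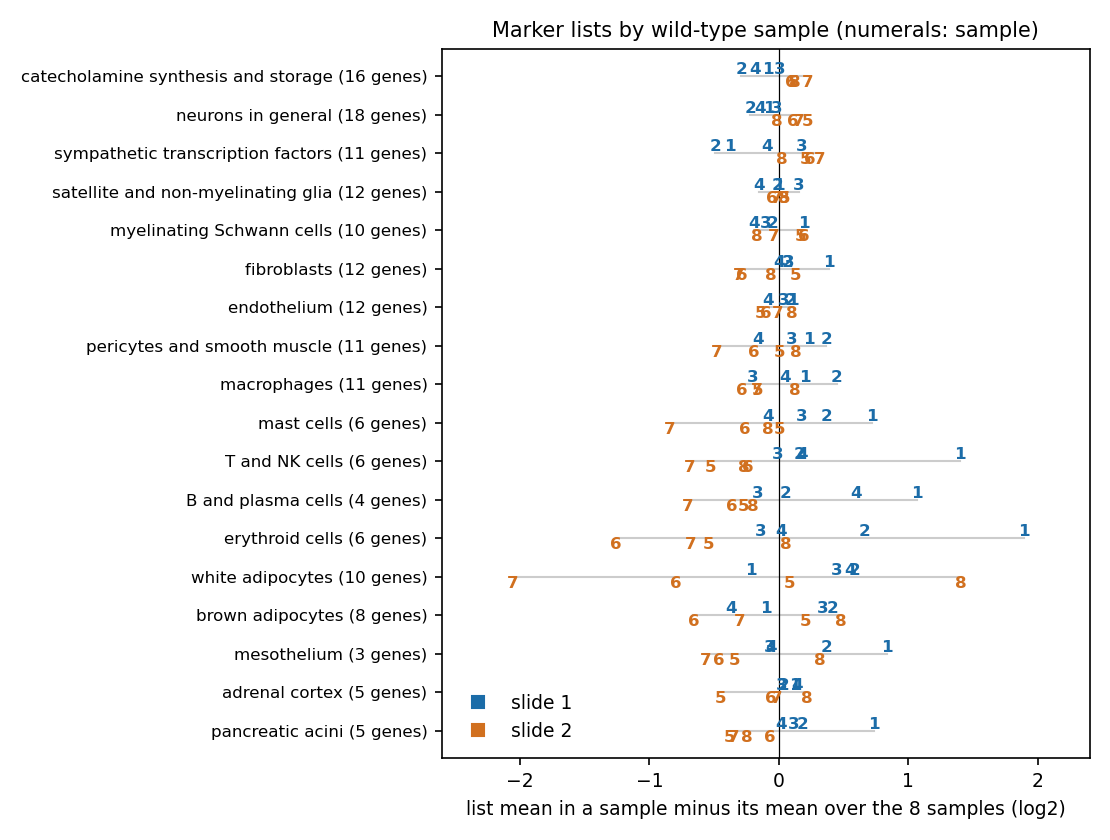
Mean level of 18 marker lists in each wild-type ganglion (numerals 1 to 8, coloured by slide and offset by slide), as the log2 difference from the list's mean over the 8 samples, over the number of genes given with each name. The neuronal and glial lists spread over less than 1 log2 unit, white adipocyte genes from -2.06 in sample 7 to 1.39 in sample 8 before centring, and erythroid genes from 2.85 in sample 6 to 6.00 in sample 1 before centring.

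Most genes varied little between the 8 ganglia. The median SD was 0.23, its 95th percentile 0.56, and 77 genes had an SD of 1 or more. Between repeated arrays of 1 RNA, available only for passaged spheres, the median SD was 0.075, beside 0.21 between wild-type ganglia over the same 11812 genes. Pairs of ganglia correlated across genes at 0.977 to 0.996, genes not being independent replicates. The 40 genes with the largest SD, from 1.13 to 2.77, were chosen by that spread, so it is given as a description without a test. Just inside the limit were Itln1 at 1.14 and Fkbp11 at 1.13, and just outside were Stk32c and Adrb3, each at 1.12. The 40 fell, by eye and after their values were seen, into genes of fat, of lymphocytes, of sex chromosomes, of a slide difference, and genes set by a single sample.

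Fat genes made the largest group. Adipoq encodes adiponectin, a hormone of fat cells, and its levels in samples 1 to 8 were -1.25, -0.13, 0.04, 0.19, -0.30, -1.50, -4.09 and 0.89. Sample 7 stood lowest and sample 8 highest. Of the other 39 variable genes 9 correlated with Adipoq at a Pearson r above 0.8 over the 8 samples, which 0.358% of all other genes did. They were Cyp2e1, a cytochrome of liver and fat, Cfd (adipsin), Cidec and Plin1, which coat fat droplets, Retn (resistin), Car3, Pck1, a gluconeogenic enzyme also active in fat, Slc36a2 and Hp (haptoglobin). All 10 were lowest in sample 7. Cyp2e1 was at -0.06, 1.19, 1.11, 1.55, 1.19, -0.15, -3.18 and 2.64 in samples 1 to 8, and a separate probe of the gene followed it at r = 0.99. Cfd had a lowest level of -0.25 in sample 7, a median of 3.64 and a highest of 4.36 in sample 4. Retn had a lowest level of -4.31 in sample 7, a median of -1.32 and a highest of 0.37 in sample 8, and its other probe followed it at r = 0.99. Adig, a fat gene outside the 40, was among the 5 genes most like Cyp2e1 by Pearson r over the 8 samples (0.97), with Adipoq, Cidec, Cfd and Retn.

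Of the whole list of white fat genes, 10 of 11 were above background on all arrays and Lep, encoding leptin, on none. Its mean ran from -2.06 in sample 7 over a median of 0.25 to 1.39 in sample 8. A pair of brown fat genes were also among the 40. Ucp1, the uncoupling protein that defines brown fat, had a lowest level of -4.10 in sample 6, a median of -1.94 and a highest of -0.17 in sample 2. Cox8b had a lowest level of -2.75 in sample 6, a median of 0.38 and a highest of 1.54 in sample 8. Sample 2 and sample 8 were thus high, and sample 6 low, for both, an order unlike that of Adipoq at the low end. Of 10 brown fat genes 8 were above background on all arrays, Cidea among them at 3.61 ± 0.35, and Elovl3 on none. Itln1, an intelectin made in visceral fat and gut, was at -2.09 in sample 2 and -2.10 in sample 8 and at or below -3.91 in the other 6.

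Fat genes varied in the TH-MYCN ganglia too, which were not used to choose them. There the SD was 1.85 for Adipoq, 1.69 for Cyp2e1, 1.96 for Cfd, 2.55 for Cidec, 2.72 for Pck1 and 2.38 for Cox8b. Over the 28 variable genes above background on all 8 TH-MYCN arrays, 16 had an SD there in the highest 5% of genes, beside 5.01% of all genes. The 28 are not fat genes alone, and many are dim. They were not compared with genes of like level, so the part of low signal was not tested. Across all 13446 such genes the ranks of the SDs in the 2 genotypes correlated at 0.41. Of the 11 white fat genes 10 were tested between genotypes and 1, Plin4, was called, higher in wild type by 1.25. Among all genes 43.8% were called higher. Adipoq, Cfd and Cidec differed by 1.33, 1.52 and 1.57, none of which passed. In primary spheres, Adipoq, Cfd, Cidec, Pck1, Plin1, Car3, Slc36a2, Cox8b and Itln1 were above background on no array, while Ucp1 and Retn were above on all 8.

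Lymphocyte genes moved together in another order of samples. Cd2, an adhesion receptor of T cells, was at -0.71, -2.71, -3.07, -1.63, -2.83, -3.32, -4.89 and -2.75 in samples 1 to 8, highest in sample 1 and lowest in sample 7. Cd5 and Ms4a4b, also of T cells, Cd79b of the B cell receptor, Gimap3 and the homing receptor Ccr7 correlated with it at r above 0.8, as did 1.72% of all other genes. All 6 were highest in sample 1 and lowest in sample 7. Cd79b had a lowest level of -2.92, a median of -1.56 and a highest of 0.94, and Ccr7 a lowest of -4.99, a median of -3.65 and a highest of -0.14. Of 12 genes of T and NK cells 6 were above background on all arrays, the mean of those running from -1.83 in sample 7 to 0.25 in sample 1, and Cd8a and Cd8b1 were above on 1 array each. Of 8 genes of B and plasma cells 4 were above on all arrays, and all but Jchain were highest in sample 1. Sample 1 was also highest for hemoglobin and for Mcpt4, above.

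Eif2s3y, which lies on the Y chromosome, had the largest SD of all. Its levels in samples 1 to 8 were 2.26, -3.62, 1.90, 2.23, 1.66, -4.43, 1.52 and 1.93, so that samples 2 and 6 lay more than 5 log2 units below the other 6. Ddx3y and Uty, also on the Y chromosome, were above background on 6 arrays and Kdm5d, likewise Y-linked, on 2. Xist, which silences an X chromosome in female cells, was above on 2, with its highest level in sample 2 at -0.37. The labels give no sex for any mouse. The 8 TH-MYCN arrays all had Eif2s3y above background, at 2.26 ± 0.21 (SD, n = 8). Eif2s3x, the X-linked copy, followed Eif2s3y on the probe used here at r = 0.99, with -1.64 in sample 2, -1.82 in sample 6 and 0.30 or more in the others. Its other probe went the opposite way, at r = -0.89 to the first, highest in samples 6 and 2 at -0.15 and -0.18 and between -0.80 and -0.42 in the rest. The genes are close homologues, so which of them the first probe read is uncertain. Other genes most like Eif2s3y over the 8 samples were Rab13 (r = 0.95), Steap2 (0.93), Trim12c (0.89) and Gabra3 (0.86), with SDs of 0.22, 0.14, 0.41 and 0.36.

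Vip, encoding a peptide of cholinergic and enteric neurons, was among the 40. In samples 1 to 8 it was at -5.08, -2.78, -2.98, -5.41, -0.45, -1.31, -2.66 and -3.99, highest in samples 5 and 6. It varied alike in TH-MYCN ganglia, with an SD of 1.58, and the genotypes did not differ by limma (difference -0.44, adjusted p = 0.62). None of the other 39 variable genes correlated with it above 0.8, as 1.83% of all other genes did. Most like it were Psmd9 (r = 0.97), Nt5dc2 (0.96), Pcdha9 (0.96), Gnb3 (0.95) and Arl8b (0.95), whose own SDs were 0.11 to 0.40. Mael, a gene of germ cell piRNA silencing, shared its high samples, at -2.45 in sample 5 and -3.63 in sample 6 against -5.83 to -4.25 in the others. Prr7 and Celf3, the latter a neuronal RNA-binding protein, were instead low in sample 2, Prr7 at -4.08 with the others from -1.54 to 0.67, and Celf3 at 0.65 with the others from 3.64 to 4.96.

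Another 9 genes had a large SD because 1 ganglion stood apart. Sample 1 alone was high for Uncx (-0.17, the others -5.67 to -3.44), Capn11 (3.98, the others 0.19 to 0.86), Krtap19-5 (2.30, the others -1.58 to -0.69) and Ltc4s, which makes leukotriene C4 (3.26, the others -0.34 to 0.45). Tec, a kinase of blood cells, was at 3.09 in sample 4 and between -3.23 and -2.67 in the others. A second Tec probe, above background on all 8 arrays, was at -3.28 in sample 4 and did not follow (r = -0.35). The genes most like the first probe were Sec22a (r = 0.98), Tmem255b (0.94), Lbx2 (0.93), Adora3 (0.93) and Cebpd (0.92), each highest in sample 4. Gpc6, a glypican, was at -0.15 in sample 6 alone, Mylk2, a kinase of skeletal muscle myosin, at -0.51 in sample 7 alone, and Saa3, an acute-phase protein, at 0.56 in sample 2 alone. Cyp2d22 was at 0.47 in sample 8 alone, where Angptl8, a lipid-regulating protein of fat and liver, was also highest (r = 0.94), as were Tas1r1, Tmem204, H6pd and Epb41. With 1 array per ganglion, a high probe in 1 sample cannot be told apart from an error of that array.

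**Figure D4:**
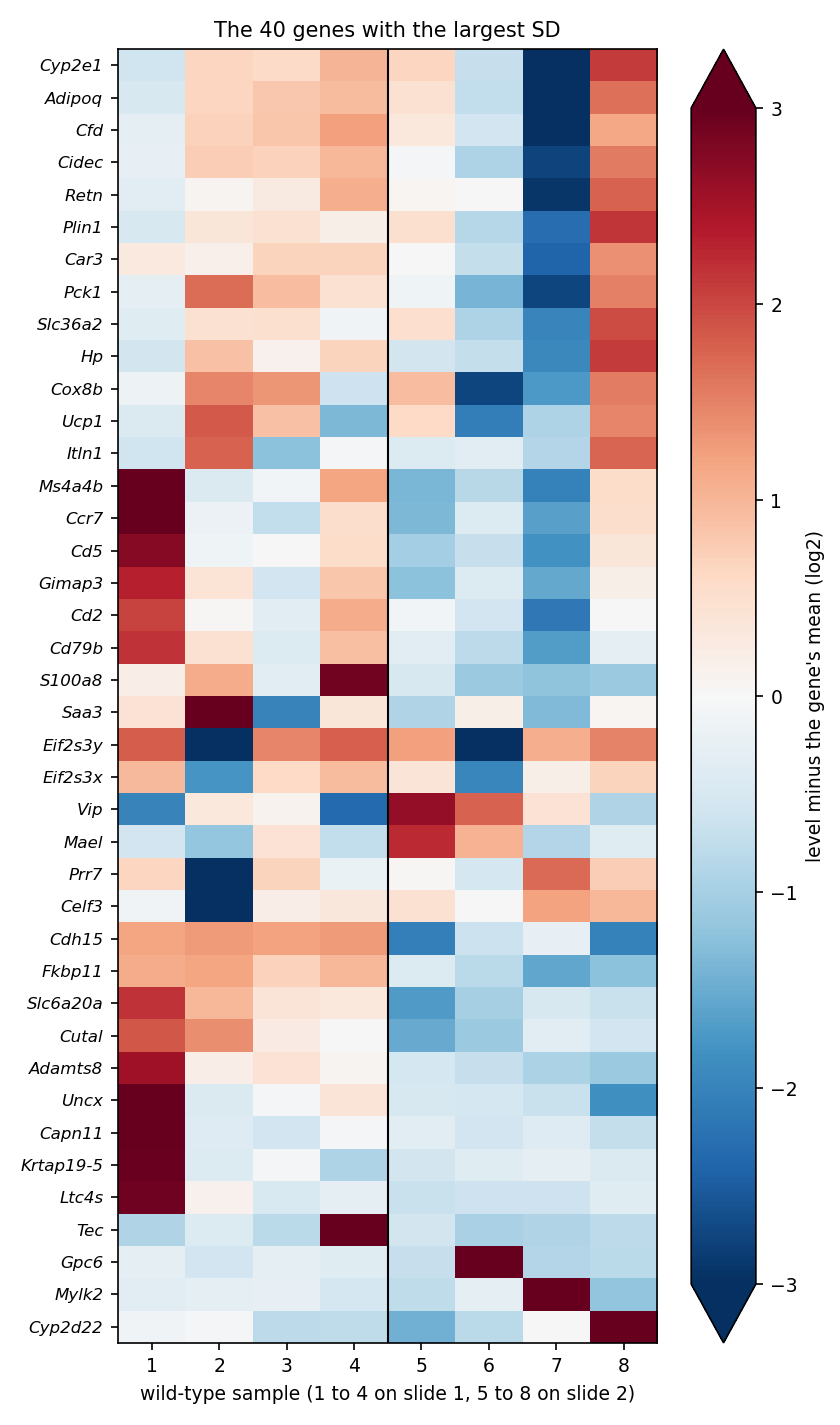
Level of the 40 genes with the largest SD (rows, grouped as in the text) in wild-type samples 1 to 8 (columns, the line dividing slide 1 from slide 2), as the log2 difference from the gene's mean. Fat genes at the top are lowest in sample 7, lymphocyte genes are highest in sample 1, and single dark cells mark genes that 1 sample set apart.

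The slides divided the ganglia as well. Samples 1 to 4 lay on slide 1 and samples 5 to 8 on slide 2, and the first principal component, with 55.7% of the variance, put samples 1 to 4 at -39.26, -38.87, -4.91 and -9.58 and samples 5 to 8 at 26.29, 22.54, 29.77 and 14.01. By limma 3896 of 15426 genes (25.3%) differed between the slides, 16.9% higher and 8.4% lower on slide 2. Different mice were on each slide, so slide and mouse cannot be told apart. The count rested on single samples, being 2279 without sample 1, 2379 without sample 2, 2580 without sample 5, 2008 without sample 6 and 1471 without sample 7. With another background correction, normexp, it was 0, with 3582 genes at an unadjusted p under 0.05 against 6317 before. TH-MYCN ganglia on the same slides gave 151 called genes (0.953%), and no gene had a called difference between the genotypes' slide differences (limma, 0 of 15845, 1434 at an unadjusted p under 0.05).

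None of the 30 brightest genes was called between slides by limma, or had an unadjusted p under 0.05, beside 25.3% of all genes called. The 40 most variable genes were chosen by an SD that contains any difference between the slides, so their slide differences are described with no test. Cdh15, an adhesion protein first known from muscle precursors, was at -1.71, -1.62, -1.69 and -1.63 on slide 1 and at -4.96, -3.54, -3.13 and -4.92 on slide 2, with no overlap and a difference of -2.47. Fkbp11, a chaperone of secretory cells, ran from -2.97 to -2.48 on slide 1 and from -5.23 to -4.07 on slide 2, a difference of -2.01. In TH-MYCN ganglia on the same slides Fkbp11, above background on 4 of those arrays, was also lower on slide 2. The difference there was -2.31 (limma adjusted p = 0.014), while Cdh15 differed there by 0.71 and was not called. Slc6a20a, a proline carrier, was at -2.86 or higher on slide 1 and at -3.66 or lower on slide 2, a difference of -1.93. Cutal differed by -1.75, S100a8, a neutrophil protein, by -1.95, and Adamts8, a secreted protease, by -1.64, or by -1.06 without sample 1. S100a8 was highest in sample 4 at -1.36, where S100a9, its partner, was at 0.53.

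Beyond the 40, slide 2 was higher for 4 of the 16 catecholamine genes (Slc6a2, Pcsk1n, Chga and Vgf), 5 of the 11 sympathetic transcription factors and 6 of the 18 neuronal genes, beside 16.9% of all genes. Phox2a differed by 0.81 (SE 0.17, limma adjusted p = 0.014) and Vgf by 1.25 (SE 0.34, limma adjusted p = 0.030), and for both the lowest level was in sample 2. Heat shock genes were higher for 3 of 5, satellite glia genes for 3 of 12 and cholinergic genes for 2 of 4. Immediate early genes such as Arc and Nr4a1 were higher for 3 of 12 and clock genes for 2 of 11, the last close to the share of all genes. The sensory neuron, smooth muscle, brown fat and MHC class II lists had 1 gene higher each. Lower on slide 2, beside 8.4% of all genes, were 2 of 12 endothelial genes (Tek and Emcn), 2 of 7 pancreatic acinar genes and 2 of 7 skeletal muscle genes. The 3 of 6 mesothelial genes are described above. The clock list had 1 gene lower (Nr1d2) and the neuronal list 1 (Snap25, by -0.55). The neuropeptide, cholinergic, sensory neuron, satellite glia, smooth muscle, T and NK cell, B cell, mast cell, liver and MHC class II lists also had 1 each. The granulocyte genes S100a9 and Camp were lower too. S100a8 of the same list is among the 40 and is not counted here. The white fat, fibroblast and macrophage lists had 0 genes called between slides by limma, and 0, 4 and 3 at an unadjusted p under 0.05. Some of the white fat genes are among the 40. All 7 erythroid genes tested were lower on slide 2 at an unadjusted p under 0.05, of which Slc4a1 was called.

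Of the 40 variable genes 11 were higher and 3 lower in wild-type than in TH-MYCN ganglia, beside 43.8% and 21.9% of all genes. Each of the 40 had to be above background on all 8 wild-type arrays, which favours a call as higher, so nothing is read from these counts. Cyp2d22, S100a8 and Mael, among the 11, were above background on only 3, 3 and 2 TH-MYCN arrays, so that their direction follows from that filter and is not given as a result. Other calls that held in all 16 fits without 1 sample were those of Ltc4s (1.19, limma adjusted p = 0.015), Cd79b (1.21) and Cutal (1.98) as higher. As lower, the calls of Gpc6 (-2.62), Cdh15 (-3.19) and, by 1 of its 2 probes, Adamts8 (-2.43) held. Without wild-type sample 1, Ltc4s differed by 0.77. The fit used another probe of Adamts8 than the one described above, and that other probe was above background on only 3 wild-type arrays. The probe described above had a mean of -3.94 in wild-type and -4.82 in TH-MYCN ganglia, so the direction of Adamts8 depended on the probe. Each fit picked the brightest probe on its own arrays. The difference of 1.34 within slide 1 therefore cannot be read as a sign turned by the slide. Ccr7 (1.35) was lost without wild-type sample 4 or 8 or TH-MYCN sample 3 or 4, at 1.24 to 1.27, and was 0.89 without wild-type sample 1. Capn11 (1.06) was lost without wild-type sample 4 or TH-MYCN sample 2, 6, 7 or 8, at 0.95 to 1.06, and was 0.62 without wild-type sample 1. Hp (1.58) was lost without wild-type sample 8 (1.28) or TH-MYCN sample 3 (1.40). Saa3 (1.52) kept its call in 6 and Car3 (1.52) in 5 of the 16 fits. Saa3 was lost without wild-type sample 1, 2, 4, 6 or 8 or TH-MYCN sample 1, 2, 3, 4 or 5, at 1.07 to 1.56. Car3 was lost without wild-type sample 1, 2, 3, 4, 5 or 8 or TH-MYCN sample 2, 3, 5, 7 or 8, at 1.08 to 1.58.

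Whether Th was lower where markers of other cells were higher was tested over the 8 ganglia for 8 genes, of which 7 are given here, one for each of fibroblasts, endothelium, smooth muscle, macrophages, fat, B cells and mast cells. None of the 7 passed an exact two-sided permutation test after Benjamini-Hochberg adjustment over the 8. For Adipoq, Pearson r was -0.61 (exact permutation p = 0.102, adjusted 0.814) and Spearman rho -0.52 (exact permutation p = 0.197, adjusted 0.840). It was -0.33 without samples 6 and 7, the 2 farthest from the median of Adipoq, and -0.55 after centring within slides, neither passing, and quantile normalization turned it to 0.069. Cd79a, the B cell gene, was above background on 1 array only, so its r of 0.23 was computed largely on background and says nothing of B cells. The other 5, above background on all arrays, lay between -0.40 for Myh11 and 0.12 for C1qa, with adjusted exact permutation p values of 0.983 or 0.985. Without the 2 farthest samples Myh11 was at 0.54 and Dcn at -0.23, so their signs rested on those samples. With 8 samples only strong relations could pass.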

How the data were processed

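Per the labels' protocols, RNA was labelled with Cy3 and hybridised to one-colour mouse arrays. The spot intensity deposited for each array was, per the file headers, background-subtracted and detrended by Agilent Feature Extraction 11.5.1.1 and not scaled between arrays. The log2 values deposited by the authors equalled, in 99.86% of values and within 0.05, log2 intensity scaled to the 75th percentile of its array with 1 constant subtracted for each probe; its direction and scale are thus known and the reference of its centring is unknown. Its column medians in wild-type samples 1 to 8 were -0.02, -0.24, -0.16, -0.27, -0.48, -0.34, -0.36 and -0.37.

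The scanner intensities were used here. Control spots and Agilent's outlier spots (153 to 211 per wild-type array) were left out, spots of 1 probe averaged, and 27235 of 55681 probes named for 20660 symbols through RefSeq accessions (GRCm38.p6). A gene was tested if its probe was well above background on at least 4 of the arrays compared. Tests used limma 3.58.1 (lmFit and eBayes, two-sided) in R 4.3.3 with Benjamini-Hochberg adjustment over all tested genes and calls at an adjusted p under 0.05, and were checked on simulated data. Precision is limited by the 8 arrays per group. Relations to Th used exact permutation over 40320 orders.

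Named genes were the 3 markers, the 30 with the highest mean and the 40 with the largest SD (predicted models left out), up to 5 members with the highest mean of each of 37 marker lists and any the other rules name, and the 5 genes most like each of the 5 most variable. Other list members were named after their values were seen. The samples and lists were chosen with earlier results of these data known. Alternatives were normexp background, quantile and median scaling, other filters and probes, slide or replicate number as a block, and leaving out each sample. Some genes that these rules name are not reported here.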

Additional observations from a re-analysis of the deposited data

Results flagged for a closer look

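In groups of 8, a sample was singled out where its gap to the nearest other sample was too large a part of the group's whole range by Dixon's criterion, which chance alone gives in about 1 of 20 groups. It was applied to the named bright and variable genes and to the list means, and singled out 25. Of these, 15 were variable genes, which were chosen for a large SD over the same 8 samples, so the rate of 1 in 20 does not apply to them.

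Sample 1 accounted for 14 of these. Among the brightest genes it was highest for Exosc2 at 9.16, Elk1 at 9.15, Gapdh at 8.96, Med16 at 9.00, Ubb at 8.86, Ppia at 8.80 and Pbld1 at 8.72. Among the variable genes it was highest for Uncx at -0.17, Ccr7 at -0.14, Capn11 at 3.98, Krtap19-5 at 2.30, Ltc4s at 3.26 and Adamts8 at -1.39, and so was the mean of the T and NK cell list at 0.25. Its array had the lowest 75th percentile of signal of the 8, at 523, and the part of this was not tested.

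Sample 2 was lowest for Ndrg4 at 7.58, Prr7 at -4.08 and Celf3 at 0.65 and highest for Saa3 at 0.56. Sample 7 was lowest for the fat genes Cfd at -0.25 and Retn at -4.31 and highest for Mylk2 at -0.51. Sample 4 was highest for Tec at 3.09 by the probe that the gene's other probe did not follow, sample 6 for Gpc6 at -0.15 and sample 8 for Cyp2d22 at 0.47. The mean of the adrenal cortex list was lowest in sample 5, at -1.42, over Fdx1, Scarb1, Nr5a1, Cyp21a1 and Star.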

How the results depend on the processing

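Of the 40 most variable genes, 26 stayed without sample 7 and 26 to 38 over all fits without 1 sample, and of the 30 brightest 28 to 30 stayed. With normexp 26 and 27 stayed of the 30 and the 40, with quantile normalization 30 and 38, with the median as scale 30 and 39, and with the mean of a gene's probes 20 and 38. By the SD within slides 32 of the 40 stayed, and in the authors' table all 40. The count of genes called between slides was 0 with normexp and ran from 1471 to 4384 without 1 sample. The count called against TH-MYCN ganglia ran from 9819 to 10712 without 1 sample and was 11238 with the replicate block, in which samples of the same number were paired; same-numbered samples did not all deviate together, and the block ended the calls of Saa3 and Car3 and of no other named gene. In a limma fit of all 4 groups Sparc lost its call (adjusted p = 0.483). Of single differences from TH-MYCN ganglia, quantile normalization turned Slc10a1 to -0.018, Tuba1b to -0.035 and Exosc2 to -0.044. It also turned Elk1 to -0.0075, Ttc38 to -0.060 and Milr1 to -0.030, and the causes were not tested. Within slide 1, a comparison added after the data were seen, Adamts8 was 1.34. Each fit picked the brightest probe of a gene on its own arrays, and the probes of Adamts8 went opposite ways. Of the relations to Th, Cd79a, mostly background, turned to -0.094 with normexp and -0.67 with quantile normalization, which also turned Cdh5 to 0.39 and Adipoq to 0.069, and Dcn turned to -0.029 with the median as scale. Without 1 sample r ran from -0.46 to 0.29 for Dcn, -0.29 to 0.039 for Cdh5, -0.68 to 0.040 for Myh11, -0.026 to 0.40 for C1qa, -0.77 to -0.41 for Adipoq, -0.13 to 0.46 for Cd79a and -0.62 to 0.51 for Cma1, and none passed. Dim genes are the least precise, since many lie near background.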
